A study of Caenorhabditis elegans with 2 samples.

Results

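The 37 genes described here were listed as pan-neuronal genes of Caenorhabditis elegans, a term for genes active in nearly every neuron whatever its type. Their expression was not measured here. They were taken as a list of gene names that was proposed with earlier results of these data known, with no measured value in its rule, and all 37 were found among the 19973 protein-coding genes of the Ensembl annotation of WBcel235 (ce11). Each locus ran from 3000 bp upstream of the gene's start to its end, and the loci were 3940 to 34332 bp long with a median of 9630 bp, against a median of 5027 bp over all coding genes. By role, 14 genes act in synaptic vesicle fusion, 5 in endocytosis, 6 in neuropeptide making and dense core vesicles, 8 in transport, cytoskeleton and synapse building, and 4 in signalling or other functions.

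Chromatin bound by CEH-44 was recovered by ChIP-seq (chromatin immunoprecipitation with sequencing) from a strain whose own ceh-44 gene carries TY1::EGFP::3xFLAG, added by CRISPR. Antibody against GFP pulled down chromatin of whole animals in the fourth larval stage (L4), 49 hours of age, grown from L1 larvae starved after bleaching. All samples are of this 1 kind, 2 biological replicates with no other genotype, stage or condition, so no test between groups could be made. Control data were not analysed here.

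CEH-44 is a homeodomain transcription factor of the CUT family, whose members in this worm are known to act redundantly in keeping pan-neuronal genes on. Their targets include the machinery that loads, fuses and retrieves synaptic vesicles and that matures neuropeptides. Neurons are only some of the nuclei of a whole larva, so binding in few cells and weak binding in many cells cannot be told apart in these values.

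The authors deposited ranked lists of candidate peaks and shorter lists that passed their threshold. The larger series list, made from both replicates, held 1027 peaks among 115557 candidates, and each of its peaks had an irreproducible discovery rate (IDR, the authors' estimate of the fraction of peaks, at that rank or better, that would fail to recur) of 0.01 or less. The list named conservative held 1003 peaks, replicate 1's own list 387 and replicate 2's own list 525. Signal is the authors' own value per peak on a scale that is not stated, so it is used only within a list, and a replicate's value is not set against another's. The median signal of the larger list was 75.96, with quartiles of 63.72 and 98.91. Read depth is unknown, so no interval can be set on any signal.

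Of the 37 pan-neuronal loci, 5 (13.5%) held a summit of the larger series list, against 6.63% of all coding loci. These genes were unc-104, unc-31, unc-41, unc-33 and tbb-1, with 7 summits in all. Longer loci hold more summits in general: the share of coding loci with a summit was 4.98% up to 5 kb, 7.44% from 5 to 10 kb, 11.0% from 10 to 20 kb and 15.7% above 20 kb. With these shares, 37 coding loci of the same lengths would hold a summit in 3.46 cases (9.36%). The pan-neuronal counts in the same classes were 1 of 3, 0 of 16, 4 of 15 and 0 of 3. No test was made of the difference between 5 and 3.46, because earlier results were known when the list was proposed.

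The 7 summits fell into 2 kinds. The 4 summits inside genes all lay in introns and all stood on or beside a gene for a small structural RNA or a tRNA pseudogene, and their signals were the 4 highest. The other 3 summits lay upstream of the gene's start, had signals of 64.02 or less, and were in neither replicate's own list. The sequences under 3 of the 4 intronic summits are shown because they carry that result, each read on the strand of the pan-neuronal gene, with the bases of the annotated small RNA gene or pseudogene in capitals.
unc-104 intron, chrII:7001607-7001718 (plus strand): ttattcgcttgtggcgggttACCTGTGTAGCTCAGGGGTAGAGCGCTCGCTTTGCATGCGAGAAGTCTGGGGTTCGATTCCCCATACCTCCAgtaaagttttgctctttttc
unc-41 intron, chrV:9970184-9970338 (minus strand): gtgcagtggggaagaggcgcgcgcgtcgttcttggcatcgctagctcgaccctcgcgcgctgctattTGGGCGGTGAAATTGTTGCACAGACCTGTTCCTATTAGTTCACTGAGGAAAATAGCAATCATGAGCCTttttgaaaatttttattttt
unc-33 intron, chrIV:3524799-3524911 (plus strand): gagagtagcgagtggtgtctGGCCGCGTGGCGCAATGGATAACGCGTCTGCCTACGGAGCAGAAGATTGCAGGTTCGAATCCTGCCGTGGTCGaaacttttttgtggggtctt
The capitals of unc-104 and unc-33 both hold the letters GTTCGANNC, the core of the B box that RNA polymerase III genes carry inside them. That motif, searched on both strands within 100 bp, was present at 2 of the 7 summits, at 22.8% of the larger series list and at 2.08% of all ranked candidates. A match in letters is a description and not a site of action.

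The kinesin gene unc-104, whose product carries synaptic vesicle precursors along axons, had the strongest of the 7 summits. Its signal was 156 in the larger series list, place 51 of the 1027, with a −log10 IDR of 4.13. The matching candidate measured 76.5 in replicate 1's ranked list and 75.4 in that of replicate 2, and both thresholded lists held it. The summit (chrII:7001631) was 6644 bp past the gene's start, inside the tRNA pseudogene C52E12.t1 as RefSeq annotates it. No candidate at all was ranked in the 3000 bp upstream of unc-104. Within 120 bp of the summit, 55.2% of the 30-base words occurred elsewhere in the genome, and the sources used here do not say how reads that match several places were treated. The intact tRNA genes C52E12.t2 (tRNA-Thr) and C52E12.t3 (tRNA-Ala) lie in the same gene, and the strongest candidate near them had a signal of 49.2, which did not pass.

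unc-31 encodes CAPS, which is needed for release from dense core vesicles. Its intronic summit, 8177 bp past the start, had a signal of 109, place 188, with candidates of 50.1 in replicate 1 and 64.4 in replicate 2, and both replicates' own lists held it. The summit stood 22 bp from an annotated snRNA gene, and 49.5% of the 30-base words around it were repeated elsewhere.

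unc-41 encodes stonin, an adaptor for retrieving vesicle membrane. Its summit (chrV:9970318) had a signal of 102, place 232, with candidates of 48.0 in replicate 1 and 59.2 in replicate 2, and it too was in both replicates' own lists. The summit was 5920 bp past the start in an intron and 47 bp from the snoRNA gene C27H6.5, which runs in the direction of unc-41. Here no 30-base word within 120 bp occurred elsewhere in the genome. It was the 1 intronic summit of the 4 with no repeated word.

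unc-33 encodes CRMP, a protein that organises microtubules in axons and dendrites. Its intronic summit (chrIV:3524852) lay inside the tRNA-Arg gene M57.t1, with a signal of 70.6, place 622. The candidate there had 38.7 in replicate 1 and 28.6 in replicate 2, and replicate 1's own list alone held it. In replicate 2 the strongest candidate of the locus was another one, with a signal of 35.5, 5268 bp away from that of replicate 1. M57.t1 is 1 of 6 identical copies in the genome, and 27.4% of the 30-base words around the summit were repeated.

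**Figure D1:**
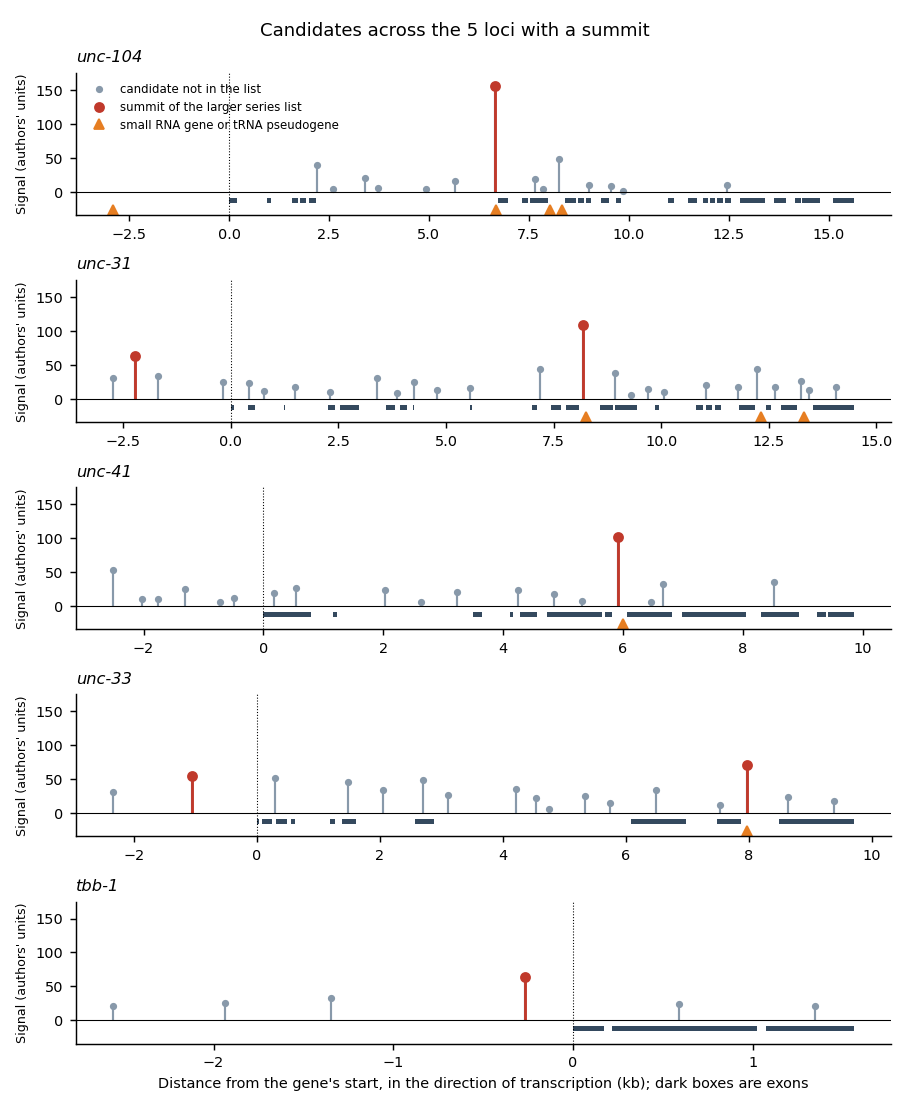
Candidate peaks of the series in the 5 loci with a summit: each stem is a candidate, with its signal in the authors' units on the vertical axis and its distance from the gene's start (kb) on the horizontal axis. Red stems are summits of the larger series list, triangles are small RNA genes or tRNA pseudogenes, and the tallest stem of unc-104, unc-31, unc-41 and unc-33 stands at a triangle, while that of tbb-1 is just upstream of the start.

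The 3 upstream summits are shown because they lie on the side of the start where promoters are found, each read on the gene's strand in a window of 50 bases to either side of the summit. Capitals mark 3 words built on core letters that CUT homeodomains are known to favour. One is ATCGAT, the next is ATCAAT with its reverse form ATTGAT, and the last is ATTAAT. Both strands were searched, and a sequence with no capitals holds none.
tbb-1 upstream, chrIII:10742647-10742747 (minus strand): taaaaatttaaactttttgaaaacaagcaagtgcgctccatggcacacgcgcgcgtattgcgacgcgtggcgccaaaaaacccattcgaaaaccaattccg
unc-31 upstream, chrIV:12771594-12771694 (plus strand): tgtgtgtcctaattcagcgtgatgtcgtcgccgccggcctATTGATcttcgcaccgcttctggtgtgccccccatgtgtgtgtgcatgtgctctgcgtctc
unc-33 upstream, chrIV:3515788-3515888 (plus strand): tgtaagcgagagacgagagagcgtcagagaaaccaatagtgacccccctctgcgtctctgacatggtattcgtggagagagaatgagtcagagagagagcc
The beta-tubulin gene tbb-1 had its summit (chrIII:10742697) at −265 bp from the start, with a signal of 64.02 and a −log10 IDR of 2.09. Its candidate had 33.1 in replicate 1 and 27.9 in replicate 2. It was the 1 summit of the 7 inside a promoter window, taken as 1000 bp upstream to 200 bp downstream of a start, and it lay in that of rib-2 as well, so it cannot be assigned to tbb-1 alone. The upstream summit of unc-31 (chrIV:12771644), at −2223 bp, had a signal of 64 and a −log10 IDR of 2.17, with 25.9 in replicate 1 and 38.8 in replicate 2. It was the 1 summit of the 7 with a CUT word. The upstream summit of unc-33 (chrIV:3515838), at −1048 bp, had a signal of 54.7 and a −log10 IDR of 2.07, with 25.2 in replicate 1 and 29.3 in replicate 2, and it was missing from the conservative list. All 3 had a candidate in both replicates' ranked lists, and none was in either replicate's own list.

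The conservative list had summits in 6 pan-neuronal loci, against 6.42% of coding loci, and added egl-3 to the same 5 genes. Replicate 1's own list had summits in 5, against 2.78%: unc-104, unc-31, unc-41, unc-33 and the synaptobrevin gene snb-1. Replicate 2's own list had them in 3, against 3.58%: unc-104, unc-31 and unc-41. Both replicates' own lists thus had a summit in 3 of the 37 pan-neuronal loci, against 396 of 19973 coding loci. In the pan-neuronal loci these summits were the 3 strongest intronic sites, each beside a small RNA gene or pseudogene.

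Small RNA genes were counted in all loci, a measure chosen after the 4 intronic summits had been seen. Counting tRNA, snoRNA and snRNA genes with tRNA pseudogenes, 12 lay in 6 pan-neuronal loci (16.2%), against 5.68% of coding loci that held any. A summit of the larger series list was present in 4 of those 6 loci, against 40.9% of the 1134 coding loci with such a gene. Among loci without one, the count was 1 of 31 (3.23%), tbb-1, against 4.57% of 18839 coding loci. None of these shares was matched for locus length, and pan-neuronal loci were longer. Of the 12 small RNA genes and pseudogenes in pan-neuronal loci, 4 had a summit of the larger list within 250 bp. The same share over all such genes of the genome was not counted, so 4 of 12 cannot be called low or high. The density of summits was 1.63 per 100 kb of pan-neuronal loci and 1.03 per 100 kb of all coding loci. Without summits within 250 bp of a tRNA, snoRNA or snRNA gene, 4 pan-neuronal genes and 4 summits were left, against 4.73% of coding genes, and the density was 0.93 per 100 kb of pan-neuronal and 0.668 per 100 kb of coding loci. Leaving out those within 250 bp of a tRNA pseudogene as well, which removes the unc-104 summit, 3 pan-neuronal genes (8.11%) were left, against 4.71% of coding genes, and the density was 0.697 per 100 kb of pan-neuronal and 0.664 per 100 kb of coding loci. Across the whole larger list, 56.5% of the 322 summits in introns stood within 250 bp of such a gene. Since the split was prompted by these same summits, these counts describe them and are no separate evidence, and the part of small RNA genes in the pan-neuronal count was not tested.

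**Figure D2:**
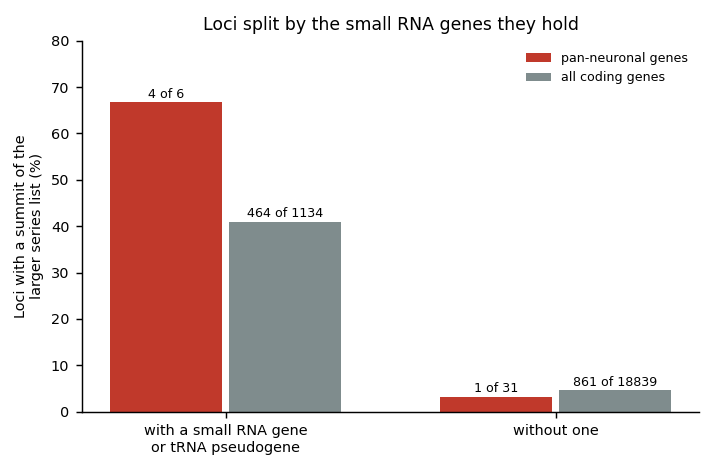
Share of loci (%, vertical axis) with a summit of the larger series list, for loci with and without a tRNA, snoRNA or snRNA gene or tRNA pseudogene. Pan-neuronal genes (red) reach 4 of 6 and 1 of 31, and all coding genes (grey) 464 of 1134 and 861 of 18839. Loci were not matched for length.

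Taking gene body and upstream sequence apart, 4 of 37 pan-neuronal gene bodies (10.8%) held a summit, against 1.79% of coding gene bodies, but the pan-neuronal gene bodies were longer, with a median of 6630 bp against 2027 bp. The upstream window was 3000 bp for every gene, so lengths were equal there. It held a summit in 3 pan-neuronal genes (8.11%), against 5.03% of coding genes.

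Candidates upstream were also compared by level, whether or not they passed. The strongest upstream candidate had a median signal of 37.5 (quartiles 29.2 and 45.3) over the 34 pan-neuronal genes that had one, against 29.2 (23.3 and 36.97) over 18263 coding genes. A signal at or above the upper quartile of coding genes was reached by 18 of the 37, or 48.6%, against 22.9% of all coding genes. Both sets had a median of 4 candidates in the window, so the shift was in height rather than in number. Nearly all of these candidates failed the authors' threshold, and the highest of the pan-neuronal ones, 64.02, was reached or passed by 4.21% of coding genes. unc-104, unc-26 and jnk-1 had no upstream candidate. In gene bodies, longer in the pan-neuronal set, the strongest candidate was higher as well, with a median of 34.9 against 28.1. There 18 of the 37 (48.6%) reached the upper quartile of coding genes, against 21.3% of all coding genes. Gene bodies were not matched for length and held a median of 8 candidates in the pan-neuronal set against 3 over coding genes. Whether the higher level is particular to the upstream window therefore cannot be told. That window was chosen after seeing the data.

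**Figure D3:**
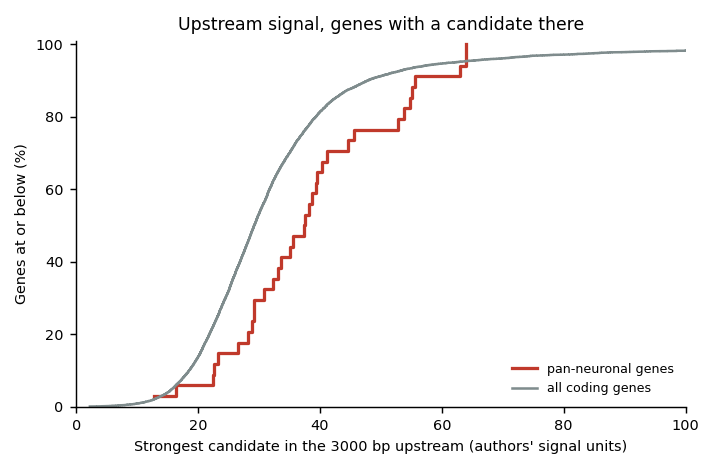
Cumulative share of genes (%, vertical axis) against the signal of the strongest candidate in the 3000 bp upstream (authors' units, drawn to 100), for genes with a candidate there. The pan-neuronal curve (red) lies to the right of the curve of all coding genes (grey) through the middle range, with medians of 37.5 and 29.2, and ends at 64.02, below the highest coding genes.

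Over whole loci the strongest candidate had a median signal of 40.0 (quartiles 35.6 and 53.6) for pan-neuronal genes, against 33.5 (27.5 and 41.1) for coding genes. Within classes of locus length the pan-neuronal medians were 55.5, 38.7, 40.0 and 41.1, and those of coding genes 31.0, 34.6, 39.9 and 43.8. The pan-neuronal loci were thus above in the 2 shorter classes and near or below in the 2 longer ones. Candidates were no denser in pan-neuronal loci, with a median of 1.29 per kb against 1.24 per kb for coding loci. At an IDR of 0.1 or less, 16 of 37 loci (43.2%) had a candidate, against 19.2% of coding loci, or 10.6 of 37 at matched lengths.

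**Figure D4:**
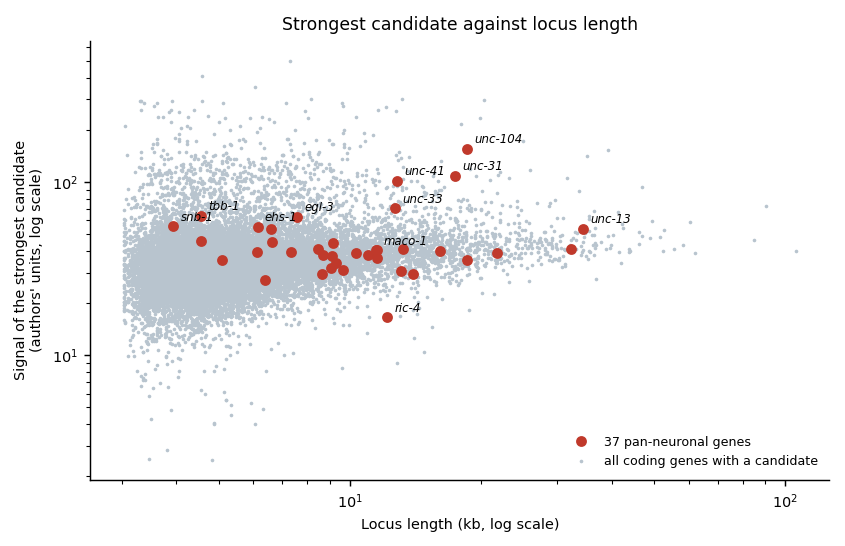
Signal of the strongest candidate (authors' units, log scale) against locus length (kb, log scale) for the 37 pan-neuronal genes (red) and all coding genes with a candidate (grey). In their length class, 0.75% of coding genes reach or pass unc-104, 1.82% unc-31, 2.25% unc-41, 6.89% unc-33 and 98.1% ric-4.

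Several genes came near the threshold. egl-3, which encodes the PC2 convertase that cuts neuropeptide precursors, had a candidate of 63.0 at −1006 bp (chrV:10174759), above the weakest passing pan-neuronal summit of 54.7. Its IDR was 0.0344, and it was in the conservative list and not in the larger one. It had 42.2 in replicate 1 and 27.8 in replicate 2. snb-1, the vesicle SNARE synaptobrevin, had 55.5 at −2438 bp (IDR 0.0802), with 39.2 in replicate 1 and 17.6 in replicate 2, and replicate 1's own list held it.

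ehs-1, the Eps15 homologue of endocytosis, had 55.2 at −823 bp with an IDR of 0.0101, and ric-19, the ICA69 homologue, 53.6 at 3423 bp past the start with 0.0105. unc-13, the Munc13 protein that primes vesicles, had 53.8 at −1348 bp with an IDR of 0.015. These 3 missed the threshold by little. The pairs in replicate 1 and replicate 2 were 33.1 and 22.4 for ehs-1, 20.4 and 39.1 for ric-19, and 21.2 and 28.6 for unc-13. All 3 sites had a candidate in both replicates. The ric-19 site also lies in the promoter window of the gene C32E8.13.

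The sequences of 4 upstream candidates are shown for the CUT words they hold; capitals mark the words as before, and each sequence spans the same window on the gene's strand.
egl-3, chrV:10174709-10174809 (minus strand): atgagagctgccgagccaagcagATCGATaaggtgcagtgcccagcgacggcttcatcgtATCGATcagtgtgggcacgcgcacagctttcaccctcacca
syd-2, chrX:10555616-10555716 (minus strand): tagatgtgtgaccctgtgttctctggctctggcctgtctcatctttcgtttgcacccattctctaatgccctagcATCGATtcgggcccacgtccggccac
ehs-1, chrII:5819839-5819939 (plus strand): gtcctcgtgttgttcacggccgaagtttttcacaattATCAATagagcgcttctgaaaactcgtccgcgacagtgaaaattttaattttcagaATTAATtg
snt-1, chrII:6810868-6810968 (plus strand): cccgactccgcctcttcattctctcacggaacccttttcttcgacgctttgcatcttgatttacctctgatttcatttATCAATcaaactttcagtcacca
egl-3 holds 2 copies of ATCGAT, which begin 27 bp before and 10 bp after the summit. Of the strongest candidates of all 37 genes, 8 (21.6%) had any of the 3 words within 50 bp, against 14.8% of those of coding genes. The word ATCGAT was present at 4 of 37 (10.8%), those of egl-3, syd-2, cpx-1 and unc-51, against 3.55% of coding genes. In the larger series list 9.93% of summits held any word and 3.21% held ATCGAT. Of all ranked candidates 15.8% held any word and 3.45% held ATCGAT. None of the 4 sites with ATCGAT was in the larger series list. Within 100 bp the pan-neuronal count was 15 (40.5%), against 29.3% of coding genes.

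The strongest candidate lay in the gene's own promoter window in 7 of 37 genes, against 25.6% of coding genes, so the pan-neuronal share was not above the background. These were tbb-1, ehs-1, syd-2, snt-1, unc-11, jkk-1 and sng-1. By annotation, the strongest candidates of the 37 genes were intergenic in 15, intronic in 12 and exonic in 10. This split was not made for all coding genes, whose gene bodies are shorter, so it is a description only.

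Replicates often differed on which site was strongest. Their strongest candidates lay within 250 bp of each other in 11 of 37 loci, against 26.7% of coding loci, again near the background. The 11 included unc-104, unc-31, unc-41 and tbb-1, and also egl-3, ehs-1, cpx-1, syd-2, unc-18, jnk-1 and maco-1. unc-13, ric-19 and snb-1 were not among them.

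Among the 14 vesicle fusion genes, unc-31 alone had a summit, and the median strongest candidate was 37.7. cpx-1, complexin, had 45.5 at −2428 bp, with 24.5 in replicate 1 and 19.8 in replicate 2. snt-1, the calcium sensor synaptotagmin, had 41.1 at −45 bp, with 21.8 in replicate 1 and 19.5 in replicate 2. At unc-18, the syntaxin-binding Munc18 protein, the strongest candidate of 39.3 lay inside the tRNA-Glu gene rte-3, 1 of 20 identical copies, and in the promoter window of the neighbour stn-2. The SNARE genes unc-64, syntaxin, and ric-4, SNAP-25, had 30.8 and 16.5. Of the SNARE trio, snb-1 was thus the highest and ric-4 the lowest.

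The value of ric-4 was the lowest of all 37 and was reached or passed by 98.1% of coding genes of its length class. It had 3 candidates in 12184 bp, and 96.2% of the 30-base words around the strongest were repeated elsewhere. The part of repeated sequence in that low value was not tested. Other genes of the group lay between 30.8 and 37.7: unc-10, rab-3, aex-3, sng-1, tom-1 and snn-1, which encode RIM, Rab3, its exchange factor, synaptogyrin, tomosyn and synapsin. The candidate of rab-3 also lay in the promoter windows of C18A3.7 and C18A3.11, and that of tom-1 in the promoter window of ostd-1.

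Among the 5 endocytosis genes the values after unc-41 and ehs-1 were 39.6 for unc-57 (endophilin), 38.8 for unc-11 (AP180) and 29.3 for unc-26 (synaptojanin). In the neuropeptide group of 6 no locus had a summit of the larger list. The group's median of 43.1 was close to the 42.8 of the transport and cytoskeleton group, and these were the highest medians of the 5 role groups. After egl-3 and ric-19 came unc-108, the GTPase Rab2, with 45.1 in an exon, and 22.4 in replicate 1 and 21.6 in replicate 2. ida-1, the IA-2 homologue of dense core vesicles, had 41.1 inside the tRNA-Gly gene B0244.t1, with 18.9 in replicate 1 and 23.8 in replicate 2. ric-7 had 39.0 in an intron, 2520 bp past the start, with an IDR of 0.0348. Its candidate had 15.2 in replicate 1 and 24.8 in replicate 2. egl-21, the carboxypeptidase that trims peptides after egl-3, had 27.04, and none of these passed.

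The 8 transport and cytoskeleton genes held 4 of the 7 summits, in unc-104, unc-33 and tbb-1. syd-2, the active zone protein liprin-alpha, followed with 44.6 at −427 bp, and 21.6 in replicate 1 and 20.9 in replicate 2. Its IDR of 0.69 was poor although both replicates held a candidate there. unc-44 (ankyrin), unc-51 (the ULK kinase), sad-1 (the SAD kinase) and unc-119 had 41.1, 40.2, 40.0 and 34.2. unc-44 had 57 candidates in its 32301 bp and no summit.

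In the last group maco-1, macoilin, had 40.4, and jkk-1, jnk-1 and rgef-1, kinases of the JNK pathway and a Ras exchange factor, had 38.1, 32.0 and 29.3. maco-1 had 1 candidate in its 11539 bp, a density of 0.087 per kb, at or below which 6.07% of coding genes lay. jnk-1 had 4 candidates, and the strongest had no candidate within 250 bp in either replicate's ranked list. The same held for the strongest candidates of unc-11 and ric-4. Those of rgef-1, unc-119 and aex-3 had none in replicate 1's ranked list, and those of egl-21, sad-1 and unc-51 none in that of replicate 2. Of the 37 genes, 28 had a candidate there in both replicates.

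**Figure D5:**
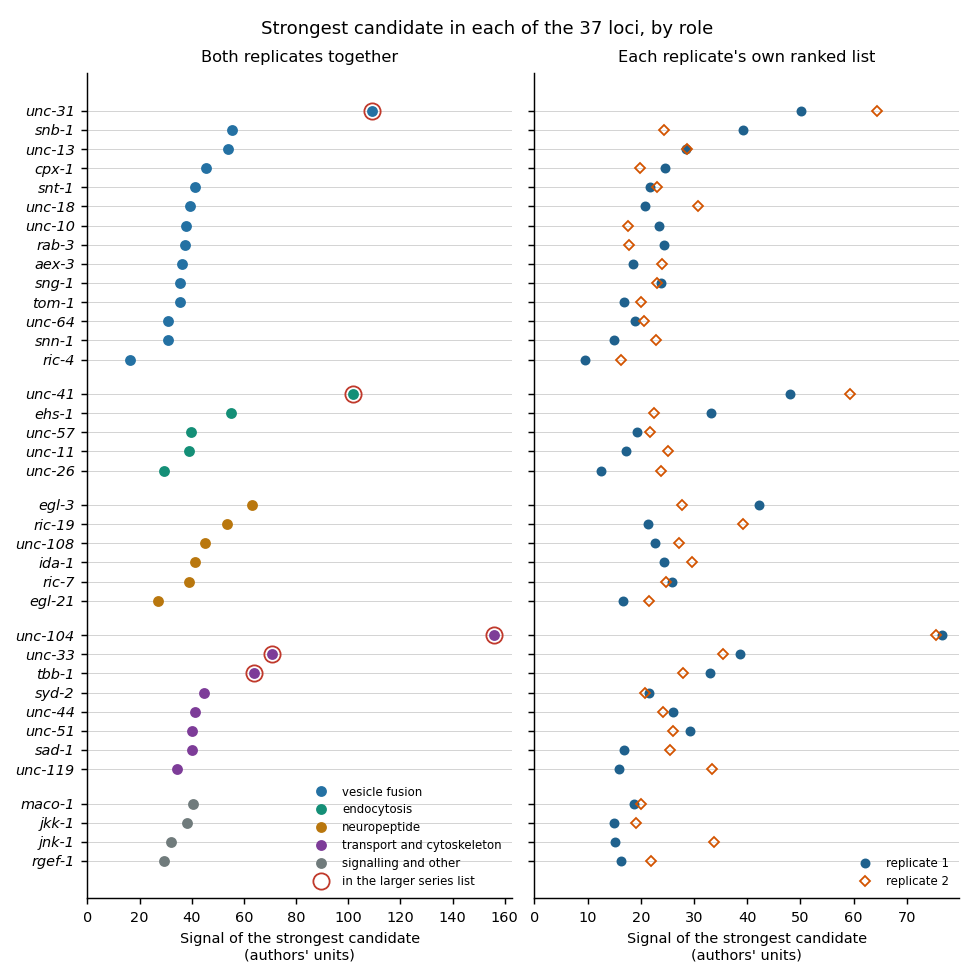
Signal of the strongest candidate in each of the 37 loci (authors' units), by role, in the series list on the left and in each replicate's own ranked list on the right. The 5 ringed genes are in the larger series list, unc-104 stands apart at 156, and the replicates' values for most other genes lie between 10 and 40.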

How the data were processed

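Peak lists of CEH-44 ChIP-seq were used as the authors deposited them, on ce11 per the labels: 4 thresholded and 4 ranked lists, 1 pair for each replicate and 2 pairs for the series. The aligner and the peak caller (versions included) were not given in the sources used here, nor was read depth. Per the file descriptions, control data entered the thresholded lists. The deposited values are a signal per peak, a score scaled from the IDR, and, in ranked lists, the −log10 of the global IDR. Every larger-list peak was in the ranked list with the same signal.

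Summits were placed on Ensembl release 115, with tRNA names, tRNA pseudogenes and the genome from RefSeq (WBcel235), using Python 3.11.15 and pandas 2.3.3. A summit counted when it lay in the locus. The replicate candidate of a site was the one with the nearest summit, at most 250 bp away. A site was held by another thresholded list when the peaks overlapped by at least 1 bp. Small RNA genes were tRNA, snoRNA and snRNA genes within 250 bp. In place of randomly drawn genes, all coding genes in the same length classes were used, as a description. Overlapping loci share summits. The sequence at 1 intronic summit is not reported here. Counting was tested on simulated data. The genes, lists and words were chosen with earlier results of these data known, and the small RNA split, the upstream window, the B box and the IDR of 0.1 after seeing them. Every member with a larger-list summit is given in full, then the 10 others with the strongest candidates.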

Additional observations from a re-analysis of the deposited data

How the results depend on the processing

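Of 74 alternative values, 45 stayed within the limits set and 29 moved. Without 1 replicate, that is with the other replicate's own list, member genes with a summit ranged from 3 to 5, their summits from 3 to 5, coding genes with a summit from 2.78 to 3.58%, summits per 100 kb from 0.697 to 1.16 in pan-neuronal and 0.389 to 0.524 in coding loci, the median strongest signal from 21.8 to 24.1 (on each replicate's own scale) and genes with a CUT word from 5 to 7. Peaks at or above the median signal gave 3 genes, 3 summits (0.697 per 100 kb), 3.53% of coding genes and 0.518 per 100 kb of coding loci. Without peaks near small RNA genes there were 4 summits (0.93 per 100 kb), 4.73% of coding genes and 0.668 per 100 kb. Leaving out tRNA pseudogenes too, chosen after seeing the data, gave 3 genes, 3 summits (0.697), 4.71% and 0.664. The coding share was 4.57% with 1000 bp upstream, 8.47% with 5000 bp, 8.01% with 1000 bp past the gene end, and 3.88% without summits in another coding promoter. Words within 100 bp were at 15 genes (40.5%), against 29.3% of coding genes. No paired analysis was possible because there is 1 group and no test. Unknown depth, 2 replicates and whole animals limit all values, and no interval could be set on a signal.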

Other observations

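A wider reach of 5000 bp upstream added 2 summits to the 7, chosen after their values were seen. At unc-41 the site at −4614 bp (chrV:9980852) reached 98.5, and both replicates' own lists held it, at 46.5 in replicate 1 and 53.0 in replicate 2. It lies in the promoter windows of ruvb-1 and tofu-1 and away from small RNA genes. At sng-1, synaptogyrin, the site at −3801 bp had 67.6 and lay inside the tRNA gene T08A9.t1, with 25.7 in replicate 1 and 41.2 in replicate 2, and neither replicate's own list held it.

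Other genes known for roles in neurons, 59 found of 61 listed, had a summit in 8 loci (13.6%), those of egl-30, nsf-1, tba-1, unc-115, unc-16, unc-7, unc-70 and vab-10. Their median strongest candidate was 41.8, against 40.0 for the pan-neuronal genes. Of 32 body wall muscle genes, 3 had a summit (9.38%), deb-1, unc-22 and zyx-1, with a median of 38.2. These lists differ in locus length, with medians of 9630 bp for pan-neuronal, 10554 bp for other neuronal and 9481 bp for muscle genes. No test of the lists against each other was made.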
